A study of Mus musculus with 18 samples.

Results

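RNA was compared between T cells of the small-intestinal lamina propria that carried CD4 together with CD8α and those that carried CD4 together with the transcription factor Foxp3. All genes of the deposited table with a normalised count of at least 10 in at least 3 of these 6 libraries were tested, which were 13914 of the 38392 listed. The cells came from donor mice of the strain C57BL/6 TNa TNb RAG1-/- Foxp3GFP, in which both chains of 1 T-cell receptor are inherited from the nucleus of a cloned T cell, no other receptor can be rearranged, and Foxp3 is reported by GFP. Donor CD4+ cells without CD8α and without Foxp3-GFP were moved into C57BL/6 TCRa-/- TCRb-/- hosts, which have no αβ T cells of their own, and cells were sorted from the small intestine 6 weeks later. The CD4+CD8α+ group (CD8α+ cells below), the CD4+Foxp3+ group (Foxp3+ cells) and the CD4+CD8α-Foxp3- group, which had neither marker, had 3 libraries each from the lamina propria and 3 each from the epithelium, 18 in all. Every group therefore shared the receptor, the host genotype and the time since transfer, and differed in the sort gate or the site. The labels state no Foxp3 gate for the CD8α+ sort and no CD8α gate for the Foxp3+ sort. They call the libraries biological replicates without naming the animals, so p-values measure the spread between these libraries and may reflect technical spread.

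The lamina propria is the connective tissue under the intestinal epithelium, where Foxp3+ regulatory T cells restrain immune responses to food and microbes. T cells of the epithelium carry a different programme, which includes CD8α homodimers, the integrin that binds E-cadherin on epithelial cells, granzymes, and receptors shared with natural killer cells. CD4 T cells can enter that programme when the helper-lineage factor ThPOK, encoded by Zbtb7b, is lost and Runx3 takes its place. Regulatory T cells keep the CD4 lineage, depend on Foxp3 and, in tissues, often carry the IL-33 receptor, KLRG1 and the growth factor amphiregulin.

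The 6 libraries held between 5093955 and 7041255 recovered reads. Pearson correlations of log2 values ran from 0.935 to 0.936 among the CD8α+ libraries, from 0.931 to 0.936 among the Foxp3+ libraries and from 0.839 to 0.860 between the groups. The first principal component took 55.2% of the variance and the second 11.9%. Mitochondrial transcripts took 2.59% to 2.94% of the normalised counts in the CD8α+ libraries and 2.07% to 2.40% in the Foxp3+ libraries, and 6 repeat-derived predicted genes took 5.16% to 7.45% and 3.74% to 6.03%. In sorted bulk RNA, fewer cells expressing a gene and less RNA of it per cell cannot be told apart.

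The genes of the sort gates went with the labels. Cd8a, the CD8 α chain (ENSMUSG00000053977, chr6:71373427-71379173 in mm10), had normalised counts of 3744, 3411 and 3364 in the CD8α+ libraries and 9.74, 9.95 and 19.5 in the Foxp3+ libraries. Foxp3 (ENSMUSG00000039521, chrX:7573644-7595245) had 0, 1.70 and 0.940 in the CD8α+ libraries and 113, 157 and 138 in the Foxp3+ libraries. Neither gene's libraries overlapped between the groups, as was true of 31.8% of all tested genes. Cd8b1, the CD8 β chain that is absent from CD8αα homodimers, had 56.7, 39.1 and 51.8 in the CD8α+ libraries and 140, 190 and 121 in the Foxp3+ libraries, a log2 difference of -1.58 ± 0.27 (SE), so it was lower where Cd8a was high (adjusted p = 0.00933). Cd4 was at 761, 683 and 1017 in the CD8α+ libraries and 616, 619 and 567 in the Foxp3+ libraries, without a call (log2 difference 0.43 ± 0.16, adjusted p = 0.154). Differences are given throughout as CD8α+ minus Foxp3+ on the log2(normalised count + 1) scale with their SE, and adjusted p-values are Benjamini-Hochberg values from limma over the 13914 genes, called under 0.05.

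The 2 lineage factors differed in how firmly they separated the groups. Runx3, the factor that directs CD8 lineage genes, had 1313, 1049 and 1169 in the CD8α+ libraries against 579, 395 and 474 in the Foxp3+ libraries, and rose in the former by 1.30 ± 0.17 (adjusted p = 0.00331). Zbtb7b had 2.06, 11.9 and 33.9 against 88.7, 162 and 65.7. All 3 Foxp3+ libraries lay above all 3 CD8α+ libraries, but the CD8α+ libraries themselves spread from 2.06 to 33.9 and the difference of -3.16 ± 0.84 missed the threshold (adjusted p = 0.052). In the cells with neither CD8α nor Foxp3, the mean of Zbtb7b was 70.7 ± 31.3 (SD, n = 3) and that of Runx3 916 ± 165.

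Of the 13914 genes, 1708 were called (12.3%), 630 of them higher in CD8α+ cells (4.53%) and 1078 higher in Foxp3+ cells (7.75%). At an unadjusted p under 0.05 there were 3499. The libraries of all 1708 called genes did not overlap between the groups, as was true of 4423 tested genes in all (31.8%). Leaving out Foxp3+ library 1 or 2 took the count of called genes to 1119 or 1136, with 1051 and 1050 of the original calls among them. Of the 1078 genes called higher in Foxp3+ cells, 237 were more than 8-fold and 65 more than 32-fold higher, and of the 630 called higher in CD8α+ cells 104 and 34, on the log2(normalised count + 1) scale. Of the called genes, 5 higher in CD8α+ cells had no read in any Foxp3+ library and 23 higher in Foxp3+ cells had none in any CD8α+ library. The median log2 difference of all tested genes was 0.0059. The filter was passed by 11557 genes in all 6 libraries, by 127 only through the CD8α+ libraries and by 180 only through the Foxp3+ libraries, and these last 2 sets had to differ. Of the genes named in the text, Cdh1, Crtam, Klrd1, Lypd6b, Mcoln2, Mras, Qpct, Tcrg-C4, Tgfbr3 and Xcl1 passed only through the CD8α+ libraries. Those that passed only through the Foxp3+ libraries were Ccr1, Ccr6, Cd81, Cxcr5, Ebi3, Folr4, Foxp3, Gpr83, Ighm, Irg1, Lrrc32, Myb, Nrp1, Plk1, Rnase4, Tnfrsf8, Tnfrsf13b, Tspan32, Vill and Wisp1. Genes of both sets that belong to a list enter its counts and median below.

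**Figure D1:**
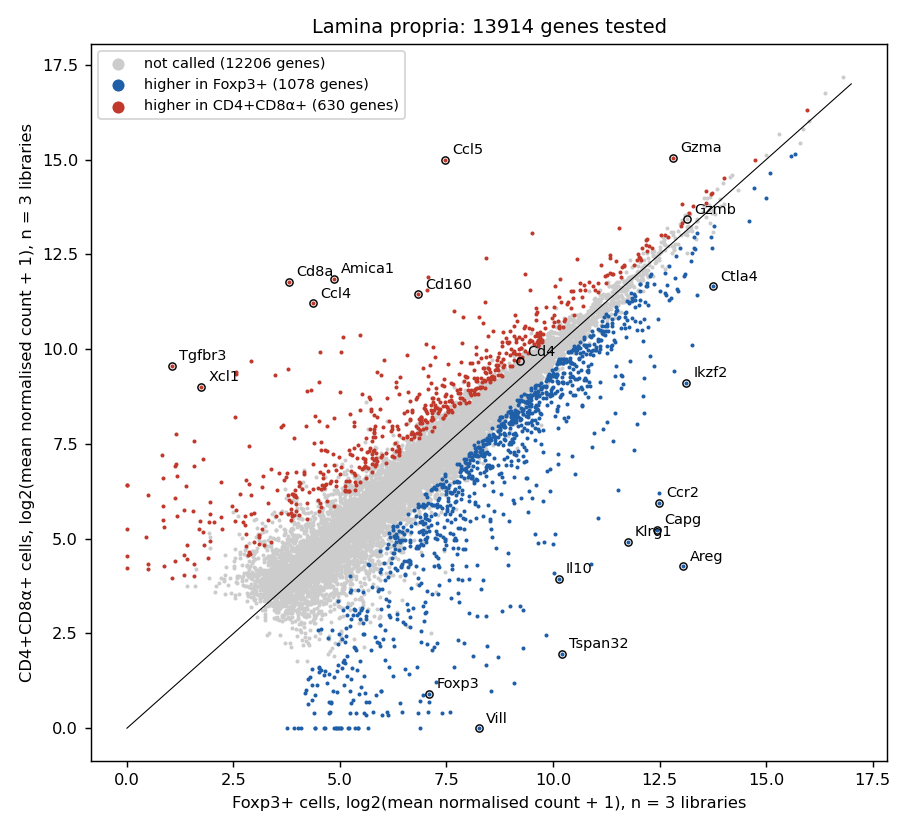
Each point is 1 of the 13914 tested genes, with its log2(mean normalised count + 1), from the mean over the 3 Foxp3+ libraries on the x axis and over the 3 CD8α+ libraries on the y axis. The 630 genes called higher in CD8α+ cells lie above the diagonal and the 1078 called higher in Foxp3+ cells below it, with Ccl5 and Cd8a far above and Areg and Capg far below.

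Genes of the CD8 and intraepithelial programme were mostly higher in CD8α+ cells. Of 20 listed genes 15 were tested, 11 were called higher in CD8α+ cells, 1 (Cd8b1) was called lower and 3 were not called, with a median log2 difference of 5.11 against 0.0059 over all tested genes. This is 80% called, and each list count here and below stands against 12.3% over all tested genes. Among the 11, Cd8a was a sort gate, and Xcl1, Crtam and Klrd1 passed the filter only through the CD8α+ libraries and so had to differ. Cd160, a receptor for the TNF-family receptor HVEM, had 2830, 2920 and 2668 in the CD8α+ libraries and 134, 106 and 99.8 in the Foxp3+ libraries, a difference of 4.63 ± 0.15 (adjusted p = 1.32e-05). Its spread within each group was small, and the groups were 24.8-fold apart in their means. Amica1, a junctional adhesion molecule that binds a receptor on epithelial cells, had 3308, 4292 and 3522 against 19.5, 17.4 and 47.5 (difference 7.13 ± 0.36, adjusted p = 8.36e-05). Xcl1, the chemokine that draws cross-presenting dendritic cells, had 428, 316 and 795 against 2.16, 2.49 and 2.43 (difference 7.15 ± 0.38, adjusted p = 9.03e-05), with CD8α+ library 3 the highest. The natural killer receptor gene Cd244 had 902, 720 and 865 against 2.16, 12.4 and 4.87, and Crtam, an adhesion receptor of cytotoxic cells, 131, 102 and 204 against 1.08, 1.24 and 0. For all 4 of these genes the Foxp3+ libraries were near 0 or far under the lowest CD8α+ library.

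The remaining members of that list moved by smaller or less even steps. Cd7, an immunoglobulin-superfamily receptor of T and natural killer cells, had 1616, 1204 and 1196 against 18.4, 72.1 and 39.0 (difference 5.11 ± 0.45, adjusted p = 0.000652). Itga1, the α chain of a collagen-binding integrin, had 665, 617 and 624 against 22.7, 4.97 and 2.43 (difference 6.34 ± 0.65, adjusted p = 0.00123). Itgae, the α chain of the integrin that binds E-cadherin, was abundant in both groups, at 3839, 3902 and 4048 and 2134, 2699 and 2307, and was 1.65-fold higher in CD8α+ cells (adjusted p = 0.00444). Klrd1, which encodes CD94, had 73.2, 63.7 and 273 against 0, 0 and 7.30 (adjusted p = 0.00938), with CD8α+ library 3 the highest. Gpr55 and Cd101 gave differences of -0.34 ± 0.16 and 0.96 ± 0.62 and were not called.

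Promoter sequences were read for Xcl1 and Cd160 because both genes were higher in CD8α+ than in Foxp3+ cells and both carry the Runx core motif TGTGGT, which Runx3 binds. Xcl1 was also high in the lamina propria cells with neither marker, as given below. A part of Runx3 in these values was not tested. Each window runs from 250 bases before to 50 bases after an annotated start (RefSeq, GRCm38.p6, both on the minus strand), is printed 5′ to 3′, and has the motif or its reverse complement in capitals. Xcl1 lies at chr1:164935473-164935772, with the motif 227 bases before the start. Cd160 has 2 annotated starts, at chr3:96829302-96829601 with the motif 76 bases before the start and at chr3:96814472-96814771 with it 101 bases before.
Xcl1: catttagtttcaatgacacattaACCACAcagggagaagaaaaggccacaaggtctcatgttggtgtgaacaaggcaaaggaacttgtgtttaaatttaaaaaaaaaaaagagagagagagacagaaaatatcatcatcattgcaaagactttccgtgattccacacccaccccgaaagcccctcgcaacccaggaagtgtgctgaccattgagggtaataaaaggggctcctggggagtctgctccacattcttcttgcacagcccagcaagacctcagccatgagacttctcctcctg
Cd160, first start: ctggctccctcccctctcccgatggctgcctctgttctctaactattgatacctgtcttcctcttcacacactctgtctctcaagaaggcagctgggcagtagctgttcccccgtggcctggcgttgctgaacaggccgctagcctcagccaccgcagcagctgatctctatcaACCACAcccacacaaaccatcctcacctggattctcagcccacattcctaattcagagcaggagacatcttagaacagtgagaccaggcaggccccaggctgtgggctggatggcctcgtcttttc
Cd160, second start: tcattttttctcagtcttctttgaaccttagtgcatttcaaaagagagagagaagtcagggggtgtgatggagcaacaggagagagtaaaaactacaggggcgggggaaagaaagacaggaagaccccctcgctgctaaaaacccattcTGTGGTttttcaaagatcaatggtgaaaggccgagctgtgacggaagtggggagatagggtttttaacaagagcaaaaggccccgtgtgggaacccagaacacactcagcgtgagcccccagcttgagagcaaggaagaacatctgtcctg
Over windows of the same length, TGTGGT on either strand occurred in 15.6% of the 443 genes higher in CD8α+ cells that had a promoter entry, 13.4% of the 741 higher in Foxp3+ cells and 12.9% of all 8586 tested genes with an entry. The T-box core GGTGTGA occurred in 3.16%, 3.78% and 3.44%, and the forkhead core GTAAACA in 1.35%, 2.83% and 2.55%. These shares were not tested against each other, and a match of letters in a window is no measured binding site.

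Cytotoxic genes divided into several patterns. Of 19 listed genes, all tested, 11 were called higher in CD8α+ cells, 3 higher in Foxp3+ cells and 5 were not called (median log2 difference 1.61). Ctsw, the lysosomal protease cathepsin W, had 4153, 3627 and 4412 in the CD8α+ libraries and 714, 736 and 509 in the Foxp3+ libraries (difference 2.65 ± 0.16, adjusted p = 0.000174). Nkg7, a granule membrane protein, had 8780, 8744 and 8332 against 923, 940 and 310 (difference 3.74 ± 0.40, adjusted p = 0.00145). Cst7, an inhibitor of lysosomal proteases, and Serpinb9, an inhibitor of granzyme B, were 3.47-fold and 3.02-fold higher in the CD8α+ means. None of these 4 genes overlapped between groups, as held for every called gene.

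The granzymes and the death ligand were less even among the Foxp3+ libraries. Gzma had 41207, 30405 and 30074 in the CD8α+ libraries and 9863, 8052 and 3818 in the Foxp3+ libraries, so the Foxp3+ cells also held the transcript, at 4.68-fold lower mean (difference 2.32 ± 0.33, adjusted p = 0.00492). Gzmk had 835, 827 and 1259 against 21.6, 42.3 and 2.43, and Fasl, the Fas ligand, 3353, 2675 and 3084 against 124, 241 and 25.6. Prf1, the pore-forming perforin, had 335, 219 and 353 against 29.2, 27.4 and 4.87 (difference 4.12 ± 0.63, adjusted p = 0.00641). For each of these 4 genes Foxp3+ library 3 was the lowest of its group. Gzmb, the granzyme with the broadest role in killing, had 11982, 8842 and 12161 against 9584, 13947 and 3677, with overlapping groups and no call (difference 0.46 ± 0.44, adjusted p = 0.58), and it was the same Foxp3+ library that lay lowest. Srgn, the proteoglycan that packs granules, and Rab27a, which docks them, were higher in Foxp3+ cells, with differences of -0.75 ± 0.10 and -0.77 ± 0.16 (adjusted p = 0.00412 and 0.0215). Rab27a lost its call on leaving out CD8α+ library 1 or 3 or Foxp3+ library 2 or 3, with an adjusted p of at most 0.0712 over all settings.

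**Figure D2:**
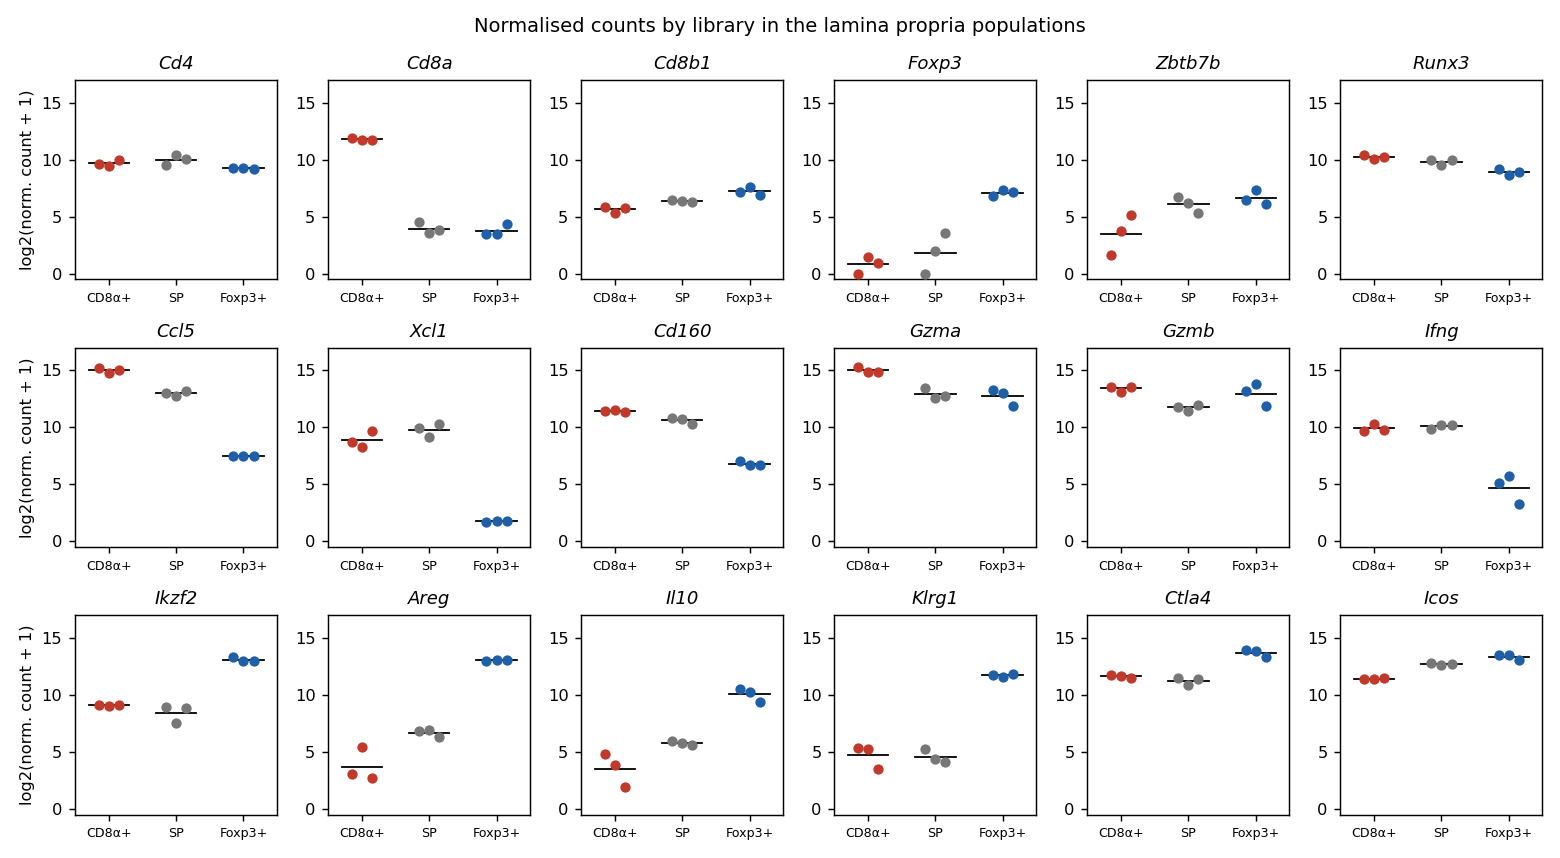
Each dot is the log2(normalised count + 1) of 1 lamina propria library, in CD8α+ cells, cells with neither marker (SP) and Foxp3+ cells, and each bar is the mean of the 3 log2 values. Ccl5, Xcl1 and Cd160 are high in every CD8α+ library and low in every Foxp3+ library, Areg, Il10 and Klrg1 show the opposite, and Gzmb overlaps between the groups.

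Chemokines and homing receptors changed in both directions. Of 23 listed genes 21 were tested, with 6 called higher in CD8α+ cells, 12 higher in Foxp3+ cells and 3 not called (median log2 difference -1.47). The ligands were on the CD8α+ side. Ccl5, a chemokine that recruits T cells and monocytes (ENSMUSG00000035042, chr11:83525778-83530518), had 37570, 28274 and 32654 in the CD8α+ libraries against 180, 177 and 175 in the Foxp3+ libraries. Its difference of 7.52 ± 0.11 had the smallest adjusted p of the comparison, 2.32e-07, and the Foxp3+ libraries differed from each other by only a few counts. Ccl4 and Ccl3, chemokines of the same family, had 2722, 2147 and 2285 against 27.0, 16.2 and 15.8 and 257, 68.0 and 273 against 20.6, 13.7 and 8.52 (differences 6.88 ± 0.24 and 3.55 ± 0.59, adjusted p = 1.72e-05 and 0.00891). CD8α+ library 2 was the lowest of its group for both.

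Among receptors, Ccr2, which guides cells to inflamed tissue, had 62.9, 62.0 and 57.5 in the CD8α+ libraries and 7474, 5810 and 4070 in the Foxp3+ libraries (difference -6.51 ± 0.22, adjusted p = 1.49e-05). Ccr7, the lymph-node homing receptor, had 11.3, 12.7 and 0.940 against 436, 550 and 538 (difference -6.20 ± 0.71, adjusted p = 0.00209). Gpr15, a receptor for homing to the large intestine, had 8.25, 10.2 and 1.88 against 401, 183 and 438, and Ccr4 had 9.28, 11.0 and 11.3 against 189, 138 and 142. The CD8α+ libraries held at most 12.7 normalised counts of any of Ccr7, Gpr15 and Ccr4. Ccr9, the small-intestinal homing receptor, was present in both groups, at 922, 960 and 983 and 2282, 3290 and 1841, and was 2.59-fold higher in Foxp3+ cells (adjusted p = 0.00587). Gpr183, the receptor for hydroxylated cholesterol, was likewise 2.59-fold higher in Foxp3+ cells. Cxcr6 and Gpr18, receptors of tissue-resident and intraepithelial cells, rose in CD8α+ cells, by 1.90 ± 0.18 and 2.75 ± 0.41 (adjusted p = 0.000909 and 0.00572).

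Regulatory genes were higher in Foxp3+ cells. Of the 22 core regulatory genes 21 were tested, 16 were called higher in Foxp3+ cells, 0 higher in CD8α+ cells and 5 were not called, with a median log2 difference of -4.00. The sort used Foxp3 itself. Foxp3, Nrp1, Lrrc32, Ebi3, Folr4 and Gpr83, all among the 16, passed the filter only through the Foxp3+ libraries and so had to differ. Ikzf2, the transcription factor Helios, had 571, 534 and 558 in the CD8α+ libraries and 10177, 8271 and 8381 in the Foxp3+ libraries (difference -4.00 ± 0.10, adjusted p = 5.28e-06). Its relative Ikzf4, or Eos, had 45.4, 28.0 and 38.6 against 384, 317 and 414 (adjusted p = 0.000307). Both were even among the 3 libraries of each group. Nrp1, a semaphorin receptor often used to mark thymic regulatory cells, had 2.06, 2.55 and 1.88 against 272, 428 and 328 (difference -6.74 ± 0.30, adjusted p = 3.72e-05). The cells compared here had been Foxp3-GFP negative when transferred.

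Effector molecules of regulatory cells followed. Il10, a suppressive cytokine, had 26.8, 13.6 and 2.83 in the CD8α+ libraries and 1459, 1219 and 684 in the Foxp3+ libraries (difference -6.53 ± 0.69, adjusted p = 0.00145). Ebi3, the shared subunit of IL-27 and IL-35, had 8.25, 1.70 and 0 against 545, 660 and 672 (adjusted p = 0.000865). Ctla4, which competes for the ligands of CD28, was well above 0 in both groups, at 3581, 3304 and 2854 and 16211, 14740 and 10261, and 4.23-fold higher in the Foxp3+ mean (adjusted p = 0.000608). No library of 1 group reached the range of the other for any of these 3 genes, as held for every called gene. Folr4, now called Izumo1r and carried by regulatory and follicular cells, had 8.25, 5.10 and 0 against 661, 1016 and 1062, and the actin-capping protein Capg 39.2, 48.4 and 22.6 against 5978, 5511 and 5081 (differences -7.87 ± 0.77 and -7.26 ± 0.27). Lrrc32, which holds latent TGF-β on the surface of regulatory cells, had 3.09, 5.10 and 3.77 against 176, 211 and 262 (adjusted p = 0.000117). Entpd1, the ectoenzyme CD39, and Gpr83, an orphan receptor of regulatory cells, had differences of -2.58 ± 0.35 and -5.68 ± 0.78 (adjusted p = 0.00399 and 0.00437). Il2ra, the IL-2 receptor α chain, had 368, 560 and 429 against 722, 716 and 1320 and missed the threshold (difference -0.98 ± 0.27, adjusted p = 0.0597).

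Genes of tissue regulatory cells gave some of the largest differences. Of 18 listed genes 16 were tested, with 12 called higher in Foxp3+ cells, 0 higher in CD8α+ cells and 4 not called (median log2 difference -3.99). Areg, the epidermal growth factor family member amphiregulin (ENSMUSG00000029378, chr5:91139599-91148432), had 7.22, 42.5 and 5.65 in the CD8α+ libraries and 8130, 8853 and 8521 in the Foxp3+ libraries, a difference of -9.31 ± 0.64 (adjusted p = 0.000262). CD8α+ library 2 was the highest of its group and still far below any Foxp3+ library. Klrg1, an inhibitory receptor for cadherins, had 41.2, 36.5 and 10.4 against 3552, 3083 and 3710 (difference -7.04 ± 0.47, adjusted p = 0.000229). Il1rl1, the IL-33 receptor, had 28.9, 43.3 and 30.1 against 956, 1262 and 978 (difference -4.94 ± 0.22, adjusted p = 4.62e-05). The transcription factor genes Maf and Gata3 had 315, 219 and 238 against 4280, 3662 and 4202 and 289, 296 and 375 against 2360, 1753 and 4282. Both were measured in CD8α+ cells too, 15.7-fold and 8.75-fold lower in the mean. Batf, a factor needed for tissue regulatory cells, was at 834, 976 and 595 and 971, 954 and 1035 and was not called (difference -0.33 ± 0.18, adjusted p = 0.324).

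The Areg promoter is shown because this gene had the largest fitted difference of those named on the Foxp3+ side and its window holds the full cyclic AMP response element TGACGTCA, in capitals. The window is chr5:91139349-91139648 on the plus strand of GRCm38.p6 (RefSeq), from 250 bases before to 50 after the start, with the element 61 bases before the start.
Areg: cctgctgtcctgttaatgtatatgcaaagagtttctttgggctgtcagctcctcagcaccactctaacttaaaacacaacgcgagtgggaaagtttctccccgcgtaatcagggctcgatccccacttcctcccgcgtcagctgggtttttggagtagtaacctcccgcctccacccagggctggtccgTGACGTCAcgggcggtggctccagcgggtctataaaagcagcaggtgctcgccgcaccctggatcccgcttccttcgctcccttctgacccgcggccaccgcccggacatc
The element, which reads the same on both strands, occurred in 3.84% of the promoter windows of genes higher in CD8α+ cells, 2.56% of those higher in Foxp3+ cells and 3.54% of all. The AP-1 motif TGANTCA occurred in 3.61%, 5.94% and 4.93%, and the NF-κB motif GGGANTTCC in 2.26%, 1.89% and 2.50%.

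Receptors of the TNF family separated the groups by member. Of 19 listed receptors and ligands 17 were tested, with 5 called higher in CD8α+ cells, 8 higher in Foxp3+ cells and 4 not called (median log2 difference -0.77). The costimulatory receptors were on the Foxp3+ side: Tnfrsf4, or OX40, had 32.0, 101 and 84.8 in the CD8α+ libraries and 5350, 5133 and 6801 in the Foxp3+ libraries (difference -6.43 ± 0.40, adjusted p = 0.00018). Tnfrsf18, or GITR, had 395, 380 and 520 against 4740, 4117 and 4497 (difference -3.38 ± 0.14, adjusted p = 3.08e-05), and Tnfrsf9, or 4-1BB, 75.2, 34.8 and 121 against 2457, 1506 and 4871. Foxp3+ library 3 was the highest for Tnfrsf4 and Tnfrsf9. Tnfrsf8 and Tnfrsf25 were called in the same direction, at differences of -4.97 ± 0.59 and -3.71 ± 0.50. On the CD8α+ side were the ligands Tnfsf14, or LIGHT, at 281, 224 and 253 against 5.41, 21.1 and 8.52 (difference 4.52 ± 0.45, adjusted p = 0.00115), and Cd40lg, through which helper cells activate B cells, at 365, 347 and 534 against 64.9, 79.6 and 57.2 (difference 2.60 ± 0.24, adjusted p = 0.000775). Ltb, lymphotoxin β, was a ligand called the other way, by -0.96 ± 0.20, and lost its call without CD8α+ library 3 or Foxp3+ library 2 or 3 (adjusted p at most 0.0714 over all settings).

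**Figure D3:**
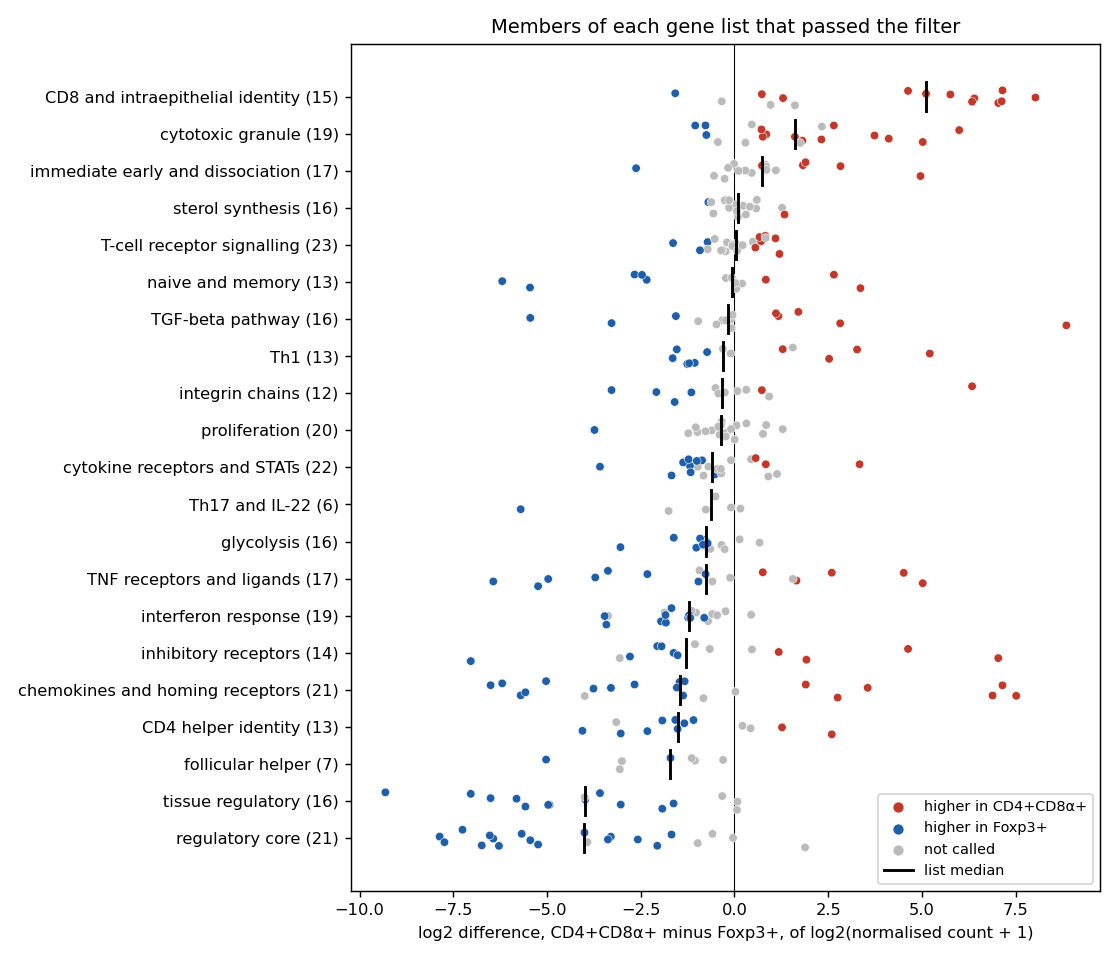
Each point is the log2 difference (CD8α+ minus Foxp3+) of 1 tested member of a gene list, coloured by its call, and each black bar is the list's median. Members of the regulatory and tissue regulatory lists lie below 0 apart from a few uncalled genes, those of the CD8 and intraepithelial list mostly above 0, and proliferation and sterol synthesis around 0.

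Inhibitory receptors did not move as a block. Of 14 listed, all tested, 4 were called higher in CD8α+ cells, 6 higher in Foxp3+ cells and 4 were not called (median log2 difference -1.29). Besides Cd160 and Cd244, Cd96 and Lag3 were on the CD8α+ side, with 1811, 1728 and 1745 against 793, 735 and 804 and 129, 102 and 214 against 28.1, 34.8 and 49.9 (differences 1.18 ± 0.094 and 1.92 ± 0.35, adjusted p = 0.000391 and 0.0137). Lag3 was not called in the fit of all 18 libraries (adjusted p at most 0.0651 over all settings). Besides Klrg1 and Ctla4, Tigit and Havcr2 were on the Foxp3+ side, with 556, 426 and 491 against 1226, 1793 and 1558 and 19.6, 13.6 and 22.6 against 125, 75.9 and 240 (differences -1.62 ± 0.17 and -2.79 ± 0.44, adjusted p = 0.00144 and 0.00775). TIGIT and CD96, which bind the same family of ligands, stood on opposite sides. Lilrb4, an inhibitory immunoglobulin-like receptor, had a difference of -1.94 ± 0.14 (adjusted p = 0.000275).

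Costimulation and helper-lineage genes were mostly lower in CD8α+ cells. Of 13 listed, all tested, 2 were called higher in CD8α+ cells, 8 higher in Foxp3+ cells and 3 were not called (median log2 difference -1.52). Icos and Cd28, costimulatory receptors of 1 gene family with Ctla4, had 2698, 2722 and 2861 against 11661, 11754 and 8419 and 1627, 1340 and 1400 against 3915, 4891 and 4266 (differences -1.93 ± 0.13 and -1.58 ± 0.12, adjusted p = 0.000262 and 0.000338). No library of 1 group reached the range of the other for either gene, as held for every called gene. In cells with neither marker the mean of Cd28 was 5229 ± 625, above the means of both groups. Other members lay elsewhere in those cells. Icos at 6981 ± 426 and Gata3 at 754 ± 191 lay between the means of the groups. Cd27 at 186 ± 32.7 and Cd5 at 128 ± 12.9 lay near the CD8α+ means of 178 and 123. Cd27, Cd5, Myb and Satb1 were also called higher in Foxp3+ cells, with differences of -2.32, -1.52, -4.06 and -1.09. Satb1 lost its call without any 1 of the CD8α+ libraries or without Foxp3+ library 1 (adjusted p at most 0.0751 over all settings). Cd6, a scavenger-receptor family relative of Cd5, was called the other way, at 1141, 650 and 918 against 362, 378 and 354 (difference 1.27 ± 0.21, adjusted p = 0.00826), so these close relatives stood on opposite sides.

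The genes of naive and memory cells divided as well. Of 14 listed genes 13 were tested, with 3 called higher in CD8α+ cells, 5 higher in Foxp3+ cells and 5 not called (median log2 difference -0.073), or 5 called in all without Foxp3+ library 2 or 3. Tcf7 and Lef1, the related transcription factors of the Wnt pathway, went opposite ways. Tcf7 had 545, 649 and 719 in the CD8α+ libraries and 64.9, 70.9 and 48.7 in the Foxp3+ libraries (difference 3.36 ± 0.21, adjusted p = 0.000174), while Lef1 had 92.8, 82.4 and 92.3 against 516, 507 and 360 (difference -2.34 ± 0.20, adjusted p = 0.000576). Neither overlapped. The survival gene Bcl2 had 640, 639 and 908 against 63.8, 147 and 156 (difference 2.65 ± 0.35, adjusted p = 0.00391) and Il7r, the IL-7 receptor, 2950, 2965 and 3204 against 1485, 1587 and 2090 (difference 0.84 ± 0.14). Slamf6 and Klf2 were higher in Foxp3+ cells by fitted differences with wide errors, -5.46 ± 1.12 and -2.47 ± 0.58 (adjusted p = 0.0208 and 0.0325). Both lost their calls when some libraries were left out, Slamf6 without any 1 of the Foxp3+ libraries and Klf2 without CD8α+ library 1 or 3 or Foxp3+ library 2 or 3, with adjusted p at most 0.0643 and 0.106 over all settings.

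Type 1 effector genes were on the CD8α+ side and receptors for type 1 cytokines partly on the other. Of 14 listed genes 13 were tested, with 4 called higher in CD8α+ cells, 6 higher in Foxp3+ cells and 3 not called (median log2 difference -0.31). Tbx21, the type 1 master regulator T-bet, had 446, 350 and 561 in the CD8α+ libraries and 44.4, 47.2 and 43.8 in the Foxp3+ libraries (difference 3.27 ± 0.22, adjusted p = 0.000229). Ifng, interferon-γ, had 834, 1254 and 852 against 34.6, 51.0 and 8.52 (difference 5.21 ± 0.59, adjusted p = 0.00195), again lowest in Foxp3+ library 3. Il12rb2, a chain of the IL-12 receptor, and Il2 were also higher in CD8α+ cells, by 2.52 ± 0.38 and 1.29 ± 0.29 (adjusted p = 0.00583 and 0.0267). The call of Il2 was lost on leaving out CD8α+ library 1 or 2 or any Foxp3+ library, and with the library number as a block in the fit (adjusted p at most 0.0939 over all settings). Ifngr1, the interferon-γ receptor, had 6664, 5951 and 6891 against 14307, 13364 and 12968 (difference -1.06 ± 0.077, adjusted p = 0.000299). Il18r1 and Il18rap, the IL-18 receptor chains, had differences of -0.73 ± 0.13 and -1.26 ± 0.21 (adjusted p = 0.0136 and 0.00879), the former not called without Foxp3+ library 1 or in the fit of all 18 libraries (adjusted p at most 0.184). Interferon-γ and its receptor thus lay on opposite sides.

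Other helper programmes were sparse. Of 12 genes of the Th17 and IL-22 programme only 6 passed the filter, 1 was called higher in Foxp3+ cells and 5 were not called (median log2 difference -0.63), or 2 called without Foxp3+ library 2. The share called, 16.7%, was near the 12.3% of all tested genes. The called gene was Ccr6, with 0, 8.49 and 0.940 against 173, 90.8 and 162 (difference -5.70 ± 0.81, adjusted p = 0.00486), which passed the filter only through the Foxp3+ libraries and so had to differ. Rora and Ahr, transcription factors of type 3 immunity, gave -0.51 ± 0.14 (adjusted p = 0.0556) and 0.16 ± 0.19 (adjusted p = 0.671). Of 11 genes of follicular helper cells 7 were tested, 2 were called higher in Foxp3+ cells and 5 were not called (median log2 difference -1.71), or 4 called without CD8α+ library 3. The 2 called were the follicle-homing receptor Cxcr5, which likewise passed only through the Foxp3+ libraries, at 1.03, 0 and 1.88 against 34.6, 72.1 and 76.7 (difference -5.03 ± 0.61, adjusted p = 0.00242), and the adaptor Sh2d1a, at 688, 390 and 445 against 1642, 1808 and 1404.

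In the TGF-β pathway, which drives both Foxp3 and the αE integrin, ligand handling and receptors differed. Of 18 listed genes 16 were tested, with 5 called higher in CD8α+ cells, 3 higher in Foxp3+ cells and 8 not called (median log2 difference -0.17), or 5 called in all without Foxp3+ library 1. Tgfbr3, the co-receptor betaglycan (ENSMUSG00000029287, chr5:107106570-107289629), had 918, 686 and 667 in the CD8α+ libraries and 3.25, 0 and 0 in the Foxp3+ libraries, where it rested on 3 reads in 1 library (difference 8.85 ± 0.58, adjusted p = 0.000228). The signalling receptor Tgfbr2 was 2.19-fold higher in the CD8α+ mean (adjusted p = 0.0248). Of the ligands, Tgfb3 had 104, 56.9 and 70.6 against 5.41, 13.7 and 12.2 (difference 2.82 ± 0.43, adjusted p = 0.0064), while Tgfb1 was at 33.0, 29.7 and 30.1 and 36.8, 33.6 and 43.8 and was not called (difference -0.28 ± 0.27, adjusted p = 0.581). Furin, a protease that cleaves the TGF-β precursor, was 3.22-fold higher in CD8α+ cells (adjusted p = 0.00177). On the Foxp3+ side, besides Lrrc32, were Itgav, the αv integrin chain that activates latent TGF-β, at 207, 215 and 293 against 2647, 2089 and 2182 (difference -3.28 ± 0.17, adjusted p = 9.03e-05), and the signal transducer Smad3, at 196, 138 and 82.9 against 480, 386 and 317 (difference -1.56 ± 0.33). Tgfbr2 lost its call without CD8α+ library 1 or 2 or Foxp3+ library 1, and Smad3 without CD8α+ library 2 or Foxp3+ library 1 or 2 (adjusted p at most 0.084 and 0.0772 over all settings).

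Over all 14 integrin chains listed, 12 were tested, 2 (Itga1 and Itgae) were called higher in CD8α+ cells, 4 higher in Foxp3+ cells and 6 not called (median log2 difference -0.34). Itga4 had 539, 442 and 360 against 1071, 953 and 923 (difference -1.15 ± 0.17, adjusted p = 0.00544). Its partner in gut homing, Itgb7, which also pairs with the αE chain, was at 2929, 3394 and 3226 and 3459, 4244 and 3734 and was not called (adjusted p = 0.167).

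T-cell receptor signalling genes were called in both directions, in cells that carried the same receptor. Of 25 listed genes 23 were tested, with 6 called higher in CD8α+ cells, 3 higher in Foxp3+ cells and 14 not called (median log2 difference 0.037). Lck, the kinase that binds CD4 and CD8α, was at 6117, 5694 and 6337 and 5984, 6464 and 5286, with overlapping groups (difference 0.037 ± 0.092, adjusted p = 0.851). Of the called genes, Sla, an adaptor that lowers receptor levels, had 1799, 1530 and 1317 against 5571, 4667 and 4214 (difference -1.64 ± 0.15, adjusted p = 0.000711). Ptpn22, a phosphatase that limits signalling, Themis, a signalling regulator, and the kinase Fyn were higher in CD8α+ cells by 1.09 ± 0.15, 1.20 ± 0.19 and 0.71 ± 0.11. Of the CD3 chains, Cd3g was called higher in CD8α+ cells (0.56 ± 0.10) and Cd247 higher in Foxp3+ cells (-0.72 ± 0.16), the latter sharing 56.4% of its exon bases with Pou2f1 on the opposite strand. Cd247 was not called without CD8α+ library 1 or 2 or any Foxp3+ library (adjusted p at most 0.113 over all settings), nor Cd3g without CD8α+ library 3. Nfatc1 was called higher in Foxp3+ cells, at -0.92 ± 0.17.

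Cytokine signalling genes were called in both directions. Of 23 listed genes 22 were tested, with 3 called higher in CD8α+ cells, 9 higher in Foxp3+ cells and 10 not called (median log2 difference -0.61), or 7 called in all without Foxp3+ library 2. Stat5a and Stat5b, which carry the signals of IL-2 and related cytokines, had 433, 454 and 470 against 1173, 951 and 1437 and 414, 273 and 333 against 752, 699 and 920 (differences -1.37 ± 0.16 and -1.22 ± 0.19, adjusted p = 0.00236 and 0.00701). Socs2, a feedback inhibitor of that pathway, had 119, 85.8 and 139 against 397, 297 and 402 (adjusted p = 0.00484). The kinase genes Pim1 and Pim2, both targets of STAT5, lay on opposite sides, with 510, 776 and 604 against 1366, 1346 and 1482 for Pim1 and 252, 370 and 307 against 15.1, 22.4 and 73.0 for Pim2 (differences -1.17 ± 0.16 and 3.34 ± 0.54, adjusted p = 0.00445 and 0.00798). Il10ra, the IL-10 receptor, was on the Foxp3+ side by -3.59 ± 0.72 (adjusted p = 0.0189), a call lost without any 1 Foxp3+ library (adjusted p at most 0.0602 over all settings).

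Immediate early genes, which also respond to tissue dissociation, were mixed. Of 18 listed genes 17 were tested, with 5 called higher in CD8α+ cells, 1 higher in Foxp3+ cells and 11 not called (median log2 difference 0.73), and DESeq2 on the recovered reads called 10 members. Nr4a2, an orphan nuclear receptor induced by activation, had 4507, 3267 and 3730 in the CD8α+ libraries and 95.2, 83.3 and 223 in the Foxp3+ libraries (difference 4.96 ± 0.35, adjusted p = 0.000281). Fos had 4981, 5835 and 5046 against 1178, 1643 and 1701 and Fosb 874, 1287 and 1060 against 212, 286 and 379 (differences 1.83 ± 0.15 and 1.90 ± 0.24), while Junb, their partner in AP-1, was at 15042, 16638 and 17068 and 9618, 11189 and 15239 and was not called. Atf3 was the member on the Foxp3+ side, at -2.63 ± 0.49 (adjusted p = 0.014). Times from tissue to lysis are not given for the libraries, and their part in these values was not tested.

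Cell division was read from a list of marker genes. Of 20 proliferation genes, all tested, limma called 1, higher in Foxp3+ cells, and 19 were not called (median log2 difference -0.35), while edgeR called 0 and DESeq2 2. The limma share of 5% was under the 12.3% of all tested genes. Mki67, the standard proliferation marker, was at 83.5, 125 and 76.3 and 157, 322 and 124 (difference -0.99 ± 0.38, adjusted p = 0.16), highest in Foxp3+ library 2. The called gene, Plk1, had 5.15, 0 and 0 against 11.9, 34.8 and 30.4 (adjusted p = 0.0386) and lost its call under 11 of the 18 other settings in which it was tested.

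Interferon-stimulated genes were higher in Foxp3+ cells where called. Of 20 listed genes 19 were tested, with 10 called higher in Foxp3+ cells, 0 higher in CD8α+ cells and 9 not called (median log2 difference -1.21), and 6 were called without Foxp3+ library 2. Ifi27l2a had 570, 921 and 558 against 7766, 8298 and 6109 (difference -3.46 ± 0.21, adjusted p = 0.000174). Oas1a, an antiviral RNA sensor, and Igtp, an interferon-induced GTPase, had 176, 212 and 192 against 672, 918 and 695 and 461, 355 and 518 against 1316, 1536 and 1388 (adjusted p = 0.000619 and 0.000926). Bst2 and Usp18 were called in the same direction, at -1.24 ± 0.18 and -3.42 ± 0.64, the latter not without Foxp3+ library 2. Ifng, an inducer of several of these genes, was lower in the group where they were higher.

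Glycolytic genes were also higher in Foxp3+ cells where called. Of 16 listed genes, all tested, 9 were called higher in Foxp3+ cells, 0 higher in CD8α+ cells and 7 were not called (median log2 difference -0.77), and 5 were called when CD8α+ library 1 or Foxp3+ library 1 was left out. Ldha, lactate dehydrogenase A, had 2236, 2364 and 2311 against 4264, 4638 and 3559 (difference -0.84 ± 0.11, adjusted p = 0.00327), and Tpi1, triosephosphate isomerase, 329, 449 and 299 against 1141, 1283 and 881 (difference -1.62 ± 0.20, adjusted p = 0.00304). Slc16a3, the lactate exporter, had 20.6, 26.3 and 9.42 against 210, 163 and 98.6 (difference -3.04 ± 0.45). Pkm and Pgk1 were 1.90-fold and 2.05-fold higher in the Foxp3+ means, and Pkm was not called in the fit of all 18 libraries (adjusted p at most 0.118 over all settings). Gapdh and Pfkp were not called and had differences of opposite sign, -0.26 ± 0.14 and 0.67 ± 0.26. Of the 16 sterol synthesis genes, all tested, 1 was called in each direction and 14 were not called (median log2 difference 0.081). That is 12.5% called, against 12.3% of all tested genes. Without CD8α+ library 1 or 2 or Foxp3+ library 2 or 3, limma called 1 sterol gene.

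Several of the largest differences were in genes outside these lists. On the CD8α+ side, Qpct, a glutaminyl cyclase, had 640, 786 and 520 in the CD8α+ libraries and 1.08, 3.73 and 9.74 in the Foxp3+ libraries (difference 7.08 ± 0.56, adjusted p = 0.000465). Mras, a small GTPase of the Ras family, had 281, 241 and 123 against 0, 2.49 and 1.22 (difference 6.69 ± 0.56). Mcoln2, an endolysosomal ion channel, and Lypd6b, of the Ly6 family, had no read in any Foxp3+ library and 97.9, 52.7 and 104 and 57.7, 118 and 75.3 in the CD8α+ libraries. Against the value of 3 reads per library, 3.54 normalised counts, these are at least 23.9-fold and 23.6-fold higher in CD8α+ cells, a bound that covers counting error only. The neighbouring genes Apol7b and Apol7e had 12.8-fold and 9.76-fold higher means in CD8α+ cells, and reads of these near-identical copies may have been split between them.

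On the Foxp3+ side, Vill, a villin-like protein, had no read in any CD8α+ library and 278, 348 and 295 in the Foxp3+ libraries, at least 109-fold higher against the value of 3 reads per library there, 2.82. The tetraspanin genes Tspan32 and Cd81, which lie close together on chromosome 7, had 3.09, 0 and 5.65 against 1153, 1084 and 1330 and 2.06, 0.850 and 0 against 182, 101 and 842 (differences -8.62 ± 0.64 and -7.13 ± 0.81, adjusted p = 0.000343 and 0.00198). Cd81 spread widely among the Foxp3+ libraries, with library 3 the highest. Wisp1, a secreted matricellular protein, had 1.03, 0 and 0 against 171, 131 and 273, and Rnase4, a secreted ribonuclease, 1.03, 0 and 9.42 against 287, 432 and 337 (differences -7.18 ± 0.49 and -6.97 ± 0.79). For genes with few or no reads in 1 group these fitted differences depend on the added 1 and are no bound.

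Markers of other cell types were read in the same libraries. Summed over 12 markers, B and plasma cell transcripts ran from 67.1 to 137 in the CD8α+ libraries and from 157 to 640 in the Foxp3+ libraries, where Igj in library 2 gave 471, while the B-cell gene Ms4a1 was at 0 in 2 libraries of each group. Summed over 16 myeloid markers the ranges were 708 to 1454 and 1886 to 2619, mostly Ctss, itself called higher in Foxp3+ cells (-1.78 ± 0.28). Csf1r and Cd14 were at or near 0 in the Foxp3+ libraries. Among the CD8α+ libraries, Lyz1, Lyz2, Csf1r, Cd68, C1qa, C1qb and C1qc were highest in library 2, with 183 of Lyz2, 22.1 of Csf1r and 32.3 of C1qa. Not all myeloid markers followed. Cd14 and Mrc1 were highest in library 1, at 6.18 and 2.06, and Itgax and Emr1 in library 3, at 33.0 and 1.88. These sums are given because some genes higher in Foxp3+ cells are known best from B or myeloid cells: Ighm, the IgM heavy chain constant gene, had 1.03, 0 and 2.83 against 477, 693 and 455, Cybb, the phagocyte oxidase subunit, 0, 5.10 and 17.9 against 478, 576 and 822, and Tnfrsf13b, the receptor TACI, 7.22, 0.850 and 0 against 334, 328 and 590. Cd83 and Irg1 were called too, at -6.24 ± 1.20, which was lost without Foxp3+ library 1 or 3, and -6.97 ± 0.53, as was the B-cell gene Cd79b (-2.12 ± 0.38), which lost its call in fits of the 9 lamina propria libraries and of all 18 (adjusted p at most 0.472). Each of Ighm, Cybb and Tnfrsf13b was high in all 3 Foxp3+ libraries. The part of other cells in these values was not tested.

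Epithelial markers summed to between 271 and 507 in the CD8α+ libraries and between 203 and 363 in the Foxp3+ libraries. Of 16 markers, 6 were at 0 in all CD8α+ libraries and 5 in all Foxp3+ libraries, among them the keratin Krt19 and the apolipoprotein genes Apoa1 and Apoa4. The sums were made up of different genes. Cdh1, which encodes E-cadherin, had 274, 222 and 383 in the CD8α+ libraries and 3.25, 7.46 and 3.65 in the Foxp3+ libraries (difference 5.70 ± 0.37, adjusted p = 0.000228). Epcam, an adhesion molecule of epithelium, had the reverse, 1.03, 2.55 and 49.0 against 176, 157 and 254 (difference -4.76 ± 1.09, adjusted p = 0.0307), and lost its call in edgeR and DESeq2 and without 1 of 5 libraries (adjusted p at most 0.0876). Among γδ T-cell genes, Tcrg-C4, a constant gene of the receptor γ chain, had 723, 662 and 653 against 1.08, 8.70 and 4.87 (difference 7.11 ± 0.53, adjusted p = 0.000343). The other member tested, the variable gene Trdv4, was called the opposite way, at 141, 152 and 91.3 against 240, 315 and 328 (difference -1.21 ± 0.25, adjusted p = 0.0209), and Sox13 was at 0 in all 6 libraries. Summed over the γδ list the ranges were 765 to 872 and 241 to 343. Stromal and innate lymphoid markers overlapped between the groups, at 127 to 195 against 151 to 160 and 96.1 to 137 against 69.6 to 102, as did mast cell and granulocyte markers, at 13.2 to 42.5 against 1.24 to 21.9. Reads in exon bases that overlapping genes share cannot be told apart. The kit does not mark strand, so this includes genes on opposite strands. Besides Cd247, such genes include Ebi3 (23.4% of exon bases), Il12rb2 (40.0%), Sh2d1a (26.6%) and Tnfrsf18 (27.2%), each with a gene on the opposite strand. On the same strand they include Ifng (25.9%) and Lilrb4, which shares 92.8% with the entry Lilrb4a.

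The lamina propria cells with neither marker give a further set of values, side by side with the others. For several genes high in CD8α+ cells they were also high: Fasl was at 2437 ± 403 (SD, n = 3), Ctsw at 3664 ± 228, Ifng at 1091 ± 125 and Xcl1 at 927 ± 334. Cd160 at 1592 ± 264, Amica1 at 1607 ± 256 and Cd244 at 156 ± 72.6 lay between the CD8α+ and Foxp3+ libraries. Cd8a was low, at 15.2 ± 6.26, near the Foxp3+ mean of 13.1. Of genes high in Foxp3+ cells, Areg at 105 ± 22.6, Il10 at 55.3 ± 6.71 and Ikzf2 at 380 ± 169 lay nearer the CD8α+ cells, while Icos at 6981 ± 426 and Maf at 1383 ± 243 lay between the groups and Il18r1 at 3629 ± 464 above both means. Cxcr6, at 3639 ± 180, was above every library of both other groups. These values are a description, with no test.

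The same comparison was made in the epithelium, with 3 libraries of each kind that share none with the lamina propria. Over the same 13914 genes, 590 were called (4.24%), 231 higher in CD8α+ cells and 359 higher in Foxp3+ cells. Of the genes called in the lamina propria, 23.3% were also called in the epithelium, and of those called in the epithelium 67.5% were also called in the lamina propria, in all 398 genes. All but 1 of these, 397, had the same direction, and the exception was Zfp36l2, an RNA-binding protein that destabilises transcripts. By sign alone, 89.6% of the genes called in the lamina propria had the same direction in the epithelium, against 63.9% of all tested genes. Across genes, which are not independent replicates, the log2 differences of both sites had a Pearson r of 0.617. Epithelial Foxp3+ library 1 stood apart: the 6 repeat-derived genes took 19.5% of its counts, and it received a weight of 0.18 in the fit of both sites. Leaving out any 1 of the epithelial CD8α+ libraries took the 590 calls to between 168 and 196.

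**Figure D4:**
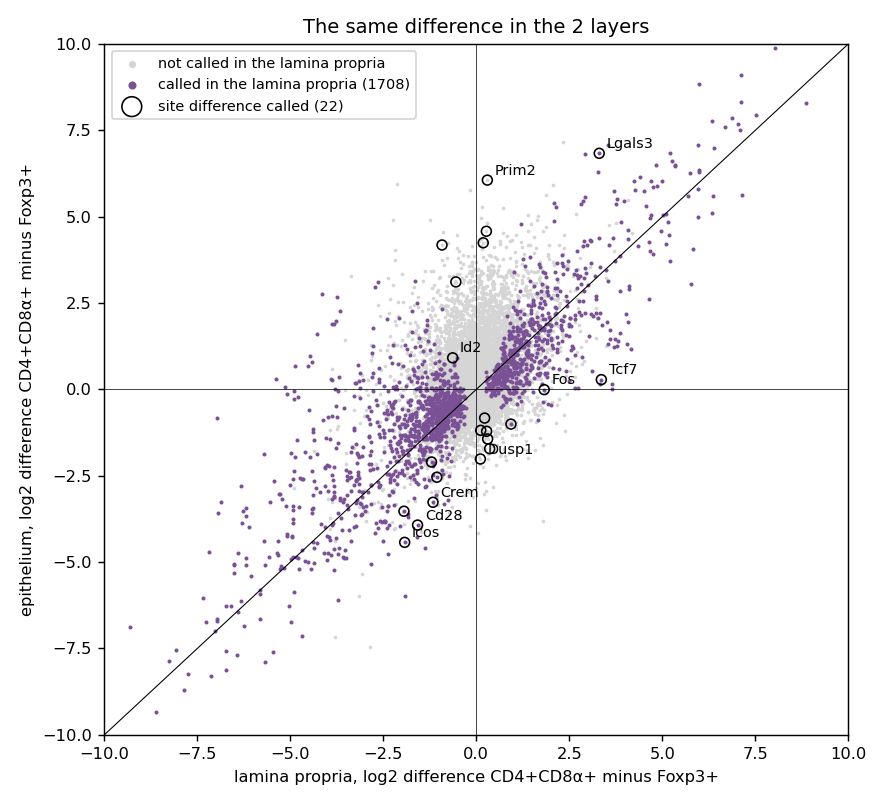
Each point is 1 of the 13914 tested genes, with its log2 difference between CD8α+ and Foxp3+ cells in the lamina propria on the x axis and in the epithelium on the y axis. Most genes called in the lamina propria lie in the lower left and upper right, and the 22 genes whose difference itself differed between the sites are marked.

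Ccl5, Cd8a, Ikzf2, Tspan32, Maf and Areg had the same direction in both tissues. Ccl5 differed by 7.93 ± 0.31 in the epithelium (adjusted p = 0.000454), Cd8a by 9.88 ± 0.35, Ikzf2 by -4.26 ± 0.17, Tspan32 by -9.34 ± 0.37 and Maf by -4.72 ± 0.14. Areg differed by -6.89 ± 0.65 there (adjusted p = 0.0058), against -9.31 ± 0.64 in the lamina propria. Cd8b1 gave -1.23 ± 0.33 and was not called in the epithelium (adjusted p = 0.108). Zbtb7b, which missed the threshold in the lamina propria, was called in the epithelium, at -5.99 ± 0.48 (adjusted p = 0.0034), and the reverse held for Foxp3 (-3.52 ± 0.81, adjusted p = 0.0805) and Tbx21 (2.06 ± 0.64, adjusted p = 0.164). A call at 1 site and not at the other shows no difference between sites, and none of these genes was among the 22 below.

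The difference between CD8α+ and Foxp3+ cells itself differed between lamina propria and epithelium for 22 genes (0.158%), in limma with library weights over 12 libraries. For 15 of them it was more positive in the lamina propria and for 7 more negative, and 1306 genes had an unadjusted p under 0.05. Icos was the first of these: the epithelial CD8α+ libraries had 268, 248 and 242 and the epithelial Foxp3+ libraries 4363, 6454 and 5777, against 2698, 2722 and 2861 and 11661, 11754 and 8419 in the lamina propria. Every CD8α+ library of the lamina propria was above every epithelial one, and the difference between sites was 2.61 ± 0.19 (adjusted p = 0.000564). Cd28 had 144, 238 and 169 in the epithelial CD8α+ libraries and 2179, 2958 and 3236 in the epithelial Foxp3+ libraries, a difference between sites of 2.36 ± 0.29 (adjusted p = 0.0127). Cd53, a tetraspanin of leukocytes, gave 0.92 ± 0.11, Crem, a repressor of cyclic AMP-responsive genes, 2.09 ± 0.29 and Dusp1, a phosphatase that inactivates MAP kinases, 2.05 ± 0.32. All 5 were lower in every epithelial CD8α+ library than in any CD8α+ library of the lamina propria.

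Tcf7 and Fos separated CD8α+ from Foxp3+ cells in the lamina propria and not in the epithelium. Tcf7 had 377, 339 and 248 in the epithelial CD8α+ libraries and 143, 201 and 613 in the epithelial Foxp3+ libraries, which overlapped, and a difference between sites of 3.27 ± 0.49 (adjusted p = 0.0333). Fos had 2286, 2726 and 1886 and 2420, 2422 and 2036, also overlapping, and a difference between sites of 1.82 ± 0.27 (adjusted p = 0.0336). Lgals3, the lectin galectin-3, went the other way, with 232, 359 and 243 in the epithelial CD8α+ libraries and 2.10, 1.37 and 0.870 in the epithelial Foxp3+ libraries, against 260, 224 and 381 and 32.5, 31.1 and 20.7 in the lamina propria (difference between sites -3.73 ± 0.49). Id2, an inhibitor of E-protein transcription factors, had 9900, 10632 and 11604 against 7024, 5086 and 5112 in the epithelium, and lay on the Foxp3+ side in the lamina propria without a call, at 8663, 8098 and 9248 against 12665, 10748 and 17862 (difference between sites -1.64 ± 0.24, adjusted p = 0.0281). Prim2, a primase subunit, had 99.4, 80.3 and 67.0 and 0, 0 and 0.870 in the epithelium and overlapped in the lamina propria, at 74.2, 110 and 54.6 and 111, 48.5 and 43.8. The calls on site were fragile. In 5 simulated sets, 31 of the 180 calls of this fit were false. Without epithelial Foxp3+ library 2 or 3 limma called 0 genes, with 1143 and 1194 at an unadjusted p under 0.05, without Foxp3+ library 1 of the lamina propria it called 2, and edgeR on the recovered reads of all 12 libraries called 15.

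**Figure D5:**
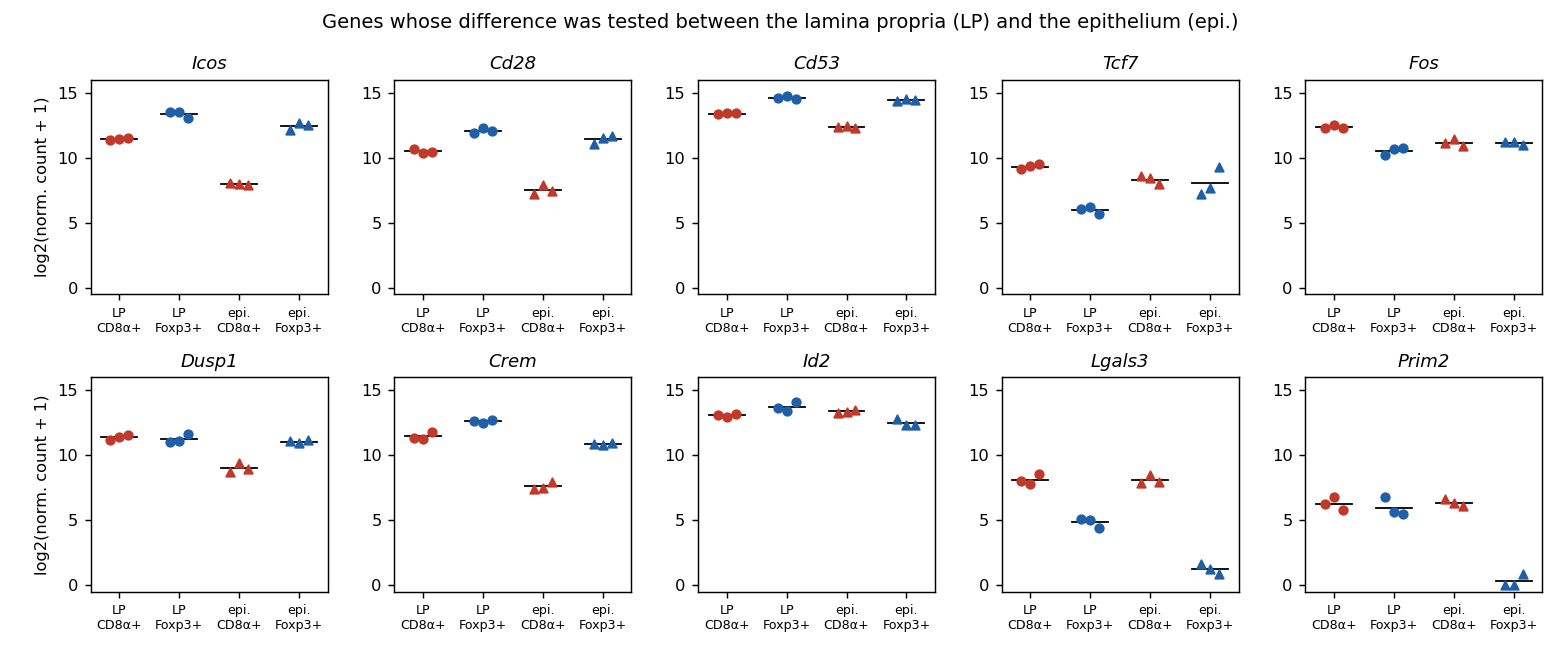
Each dot is the log2(normalised count + 1) of 1 library, for CD8α+ and Foxp3+ cells of the lamina propria and of the epithelium, and each bar is the mean of the 3 log2 values. Icos, Cd28 and Crem are lowest in the epithelial CD8α+ libraries, Tcf7 and Fos separate the cell types in the lamina propria and overlap in the epithelium, and Prim2 and Lgals3 are lowest in the epithelial Foxp3+ libraries.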

How the data were processed

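Libraries of sorted T cells were prepared with Nextera XT from bead-purified RNA, per the labels' protocols, and TopHat, HTSeq and the mouse build mm10 are named in the submitters' processing notes, without versions. The authors deposited 1 normalised signal per gene and library. From the values, this signal is a read count times 1 factor per library, rounded to 2 decimals: dividing by the smallest step made 100% of the values whole in each of the 12 libraries compared, allowing an error of 0.1 of that step. How the factors were set is not given in the sources used here. Gene positions are from GENCODE M21 for 36639 identifiers, and 1125 identifiers had no symbol.

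Values were taken to log2 after adding 1. Genes with at least 10 in at least 3 of the 6 libraries were tested with limma 3.58.1 in R 4.3.3 (trended, robust variance), in a fit of these 6 libraries alone. Floors of 3 reads per library were used for groups at 0, and they cover counting error alone, because no molecular identifiers are described. The epithelial comparison used the same model on its own 6 libraries, and the difference between sites an interaction with library weights over 12. For 1 value, permuting 3 against 3 libraries exactly gives no p below 0.1, so none is given. Scripts were tested on 5 simulated sets per comparison with known 2-fold and 4-fold changes. The main fit recovered 28.8% and 74% of them, with 23 of 537 calls false. The epithelial fit recovered 2.2% and 27%, with 2 of 148 calls false. The fit of the difference between sites recovered 1.6% and 28.2%, with 31 of 180 calls false. A gene without a call may therefore still differ.

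The comparison, gene lists and settings were chosen with earlier results of these data known. Genes named are the 12 largest called changes in each direction whose higher group averaged 50 or more (predicted genes and receptor segments left out), those called among the 4 members of each list with the smallest p, the gate and lineage genes, and for the site difference the 5 smallest p in each direction. Other genes named were chosen after their values were seen. A few genes these rules name are not reported here. Alternatives were other pseudocounts, filters and scalings, edgeR 4.0.16 and DESeq2 1.42.0 on the recovered reads, library weights, more libraries in the fit, the replicate number as a block, and leaving out each library.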

Additional observations from a re-analysis of the deposited data

Results flagged for a closer look

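For 22 genes the difference between CD8α+ and Foxp3+ cells itself differed between lamina propria and epithelium, by the interaction in limma. Values are given for 21 of them and are the lamina propria difference minus the epithelial one, on the log2(normalised count + 1) scale.

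Genes whose difference was more positive in the lamina propria included receptors and regulators of activation. They were Icos (2.61), Cd28 (2.36), Cd53 (0.92), Ifngr1 (1.51), Lilrb4 (1.83), the kinase Stk17b (1.09), Crem (2.09), Dusp1 (2.05), Fos (1.82), Tcf7 (3.27) and Zfp36l2 (1.94). Ifngr1 had 1013, 1191 and 1255 in the epithelial CD8α+ libraries and 6612, 9407 and 4828 in the epithelial Foxp3+ libraries, against 6664, 5951 and 6891 and 14307, 13364 and 12968 in the lamina propria. Zfp36l2 changed sign, with 652, 499 and 731 against 1417, 1227 and 1107 in the epithelium and 3426, 2684 and 2963 against 1394, 1548 and 1818 in the lamina propria, and both differences were called. The further entries of this direction were the noncoding genes Gm12505 (2.20) and Gm26809 (1.76), the pseudogene Hmgb1-ps8 (1.25) and the unnamed identifier ENSMUSG00000092215 (1.50).

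Those more negative in the lamina propria included Prim2 (-5.75), Mtap (-3.76), Sephs1 (-4.47), Zfp667 (-4.94), Lgals3 (-3.73) and Id2 (-1.64). Mtap, the enzyme that salvages methylthioadenosine, had 250, 188 and 164 in the epithelial CD8α+ libraries and 2.10, 15.1 and 10.5 in the epithelial Foxp3+ libraries, against 129, 130 and 200 and 148, 80.8 and 158 in the lamina propria. The low values of Prim2, Mtap and Zfp667 lay in all 3 epithelial Foxp3+ libraries, and those of Sephs1 in 2 of them. None of the 22 genes kept its call under every other setting tried for this comparison (0 of 22).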

How the results depend on the processing

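The count of 1708 called genes ran from 1322 to 2322 under the settings that kept all 6 libraries: 1642 by edgeR and 2322 by DESeq2 on the recovered reads, 1686 with equal library totals, 1701 with quantile normalisation, 1719 with median-of-ratios scaling, 1677 and 1810 with 0.5 and 5 in place of 1 before log2, 1727 with no filter and 1322 in a fit of all 18 libraries. Leaving out 1 library gave 1119 to 1321, lowest without Foxp3+ library 1. No named gene that was called changed sign, and 147 of 172 kept their call under each of the 19 settings in which they were tested. Uncalled Gzmb and Lck ran from -0.087 to 0.87 and from -0.041 to 0.10 with 1 library left out, below 0 without Foxp3+ library 3. Equal totals and quantile normalisation raised the share of calls higher in CD8α+ cells from 36.9% to 42.2% and 43.7%. Counts over some lists also moved: by DESeq2, 2 proliferation, 4 follicular helper and 10 immediate early genes were called, and sterol synthesis gave 0 in the fit of 18 libraries. Whether library numbers pair the samples is not given, and the main fit did not use them. Residuals of same-numbered lamina propria libraries correlated at 0.0269 to 0.0548, and those of other numbers at -0.037 to 0.0047. In the epithelium the values were 0.0338 to 0.0595 and -0.053 to 0.011. In both tissues, and for each cell type across tissues, 6 of 6 libraries correlated best with their own number. Library numbers may therefore mark a weak shared effect, whose source was not tested. With the replicate block 1626 genes were called, 1431 of them shared with the original calls. For the epithelium the 590 calls became 236 with the replicate block and 168 to 825 with 1 library left out. The 22 site calls became 16 without library weights, 15 by edgeR and 0 to 22 with 1 library left out. The cause of these changes was not tested. Differences near the floor of 3 reads (2.82 and 3.54 normalised counts) are limited by depth.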

Other observations

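Some called genes were neighbours on the chromosome. Counting tested genes in chromosomal order, 36 runs of at least 3 adjacent genes were called in 1 direction, 29 higher in Foxp3+ cells and 7 higher in CD8α+ cells, with 121 of the 1708 called genes in all, chosen for description after their values were seen. The IL-1 receptor family genes Il1rl1, Il18r1 and Il18rap formed 1 run on chromosome 1, with differences of -4.94, -0.73 and -1.26. The chemokine receptor genes Ccr1 and Ccr2 lay in another on chromosome 9, and Ccr1 had 0, 4.25 and 1.88 in the CD8α+ libraries and 168, 155 and 290 in the Foxp3+ libraries (difference -6.32 ± 0.63, adjusted p = 0.00113). The interferon-induced guanylate-binding protein genes Gbp7, Gbp3, Gbp5 and Gbp2 formed a run on chromosome 3, with differences of -1.91, -1.74, -1.91 and -1.18. The Ly6 genes on chromosome 15 included Ly6a, which encodes Sca-1, at 640, 1301 and 765 against 5113, 6313 and 3361, and Ly6e at 2121, 2855 and 2801 against 6104, 7763 and 6999. The calcium-binding S100a4 and S100a6 had 0, 0.850 and 10.4 against 251, 158 and 312 and 7.22, 16.1 and 1.88 against 681, 637 and 489 (differences -6.39 ± 0.85 and -6.33 ± 0.60), and S100a4 shares 51.7% of its exon bases with Gm42674. On the CD8α+ side, 6 adjacent mitochondrial genes formed a run of small differences, such as mt-Atp6 (0.50 ± 0.10) and mt-Nd4 (0.68 ± 0.12), beside the higher mitochondrial share of those libraries. The call of mt-Atp6 was lost under quantile normalisation and without 4 of the libraries in turn (adjusted p at most 0.315). Members of some families were similar in sequence, and runs were not compared with a background.

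Glycan-building enzymes stood among the genes higher in CD8α+ cells and were picked out after their values were seen. Gcnt2, which branches poly-N-acetyllactosamine chains, had 504, 573 and 595 in the CD8α+ libraries and 31.4, 14.9 and 19.5 in the Foxp3+ libraries (difference 4.67 ± 0.29, adjusted p = 0.00018). Chsy1, a chondroitin synthase, had 1013, 1348 and 1485 against 46.5, 17.4 and 34.1 (difference 5.34 ± 0.36). The sialyltransferase genes St3gal6, St6galnac2 and St8sia1 differed by 3.33 ± 0.68, 3.09 ± 0.58 and 2.96 ± 0.25, and St3gal6 shares 26.0% of its exon bases with Dcbld2. Phosphodiesterases, which break down cyclic nucleotides, went both ways: Pde3b and Pde7a were higher in CD8α+ cells, by 3.08 ± 0.19 and 3.00 ± 0.21, and Pde2a was lower, by -4.42 ± 0.32. The Pde2a entry shares 95.6% of its exon bases with another entry of the same name on the same strand. Subunits of the phagocyte oxidase also went both ways, with Ncf4 on the Foxp3+ side beside Cybb, at 33.0, 43.3 and 52.7 against 522, 593 and 379, and Ncf1 on the CD8α+ side, at 522, 393 and 497 against 117, 133 and 35.3. The clock-output genes Per3 and Hlf were higher in CD8α+ cells, by 2.97 ± 0.66 and 3.28 ± 0.30. Zeb2, a factor of terminal effector cells, had 400, 537 and 462 against 53.0, 16.2 and 24.4 (difference 4.02 ± 0.41). Penk, the enkephalin precursor, had 125, 26.3 and 333 against 2708, 1201 and 7518, with wide spread in both groups and no overlap (difference -4.79 ± 0.96, adjusted p = 0.0193). Some of these calls were lost with 1 library left out: Ncf1 without CD8α+ library 1, Per3 without CD8α+ library 1 or 3, St3gal6 without CD8α+ library 2 or 3 or Foxp3+ library 3, and Penk without CD8α+ library 1 or Foxp3+ library 1 or 3 (adjusted p at most 0.0546, 0.0882, 0.0647 and 0.0599 over all settings). Per3 also lost its call with the library number as a block in the fit.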
